A study of Mus musculus with 6 samples.

Results

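The genes of the megalin-cubilin uptake machinery were followed in kidney cells of mice with and without autosomal dominant polycystic kidney disease (ADPKD). The set held 8 genes, *Lrp2* (megalin), *Cubn* (cubilin), *Amn* (amnionless), *Dab2*, *Clcn5*, *Folr1*, *Fcgrt* and *Kap*, taken by their symbols from the 55367 symbols listed for each library. The rule used no measured value, and all 8 passed the filter on low values, *Cubn* only through libraries in which it was high. RNA was sequenced from 3 groups at Day115 with 2 libraries each. WT mice (*Pkd1*+/+) received saline. ADPKD mice, labelled *Pkd1*-/- and also given saline, carried *Pkd1* fl/fl and Cre/Esr1, and tamoxifen was used to switch on Cre in male animals. ADPKD+MMPP mice had the ADPKD genotype and were injected intravenously with MMPP, a polyethylene glycol-bound, manganese-chelated melanin-like nanoparticle that scavenges reactive oxygen species. The question put by the design was what *Pkd1* loss, and then MMPP, did to the transcripts of tubular cells.

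Megalin and cubilin are very large receptors on the brush border of the proximal tubule, where they bind albumin, vitamin carrier proteins and other small filtered proteins and carry them into the cell through clathrin-coated pits. Amnionless anchors cubilin in the membrane, the adaptor Dab2 links the tail of megalin to clathrin, and the chloride/proton exchanger ClC-5 (*Clcn5*) supports the acidification of the endosomes in which receptor and cargo part. Loss of these proteins lets small proteins escape into the urine, as in Dent disease for *CLCN5* and Imerslund-Gräsbeck syndrome for *CUBN* and *AMN*.

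The cells were enriched on Dolichos biflorus lectin (DBA), which mainly binds distal nephron and collecting duct cells in the adult mouse kidney, so the proximal tubule was not the enriched segment. The labels name tubular epithelial cells, but also mention whole-kidney RNA. The sources used here do not say whether WT mice carried Cre or received tamoxifen, which cells expressed Cre, or how many mice went into a library. *Pkd1* itself was at 17.7 and 17.2 FPKM (fragments scaled to exon length and library depth) in WT, 7.64 and 8.91 in ADPKD and 4.34 and 3.99 in ADPKD+MMPP libraries, lower in ADPKD than in WT (log2 fold change -0.998, limma adjusted p = 0.00566). Depth recovered from the steps in the values was 30.6 to 33.1 M reads in WT and ADPKD libraries and 10.9 to 11.8 M reads in ADPKD+MMPP libraries, in which only 7.18 and 7.64% of low read numbers were odd, against 35.2 to 37.2% in the others. Depth and this difference in the reads went with treatment and cannot be told apart from it.

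In ADPKD, 3 of the 8 genes rose against WT, *Lrp2*, *Cubn* and *Folr1*, and none fell. With MMPP, 5 genes rose against ADPKD, *Lrp2*, *Cubn*, *Amn*, *Clcn5* and *Kap*, and 3 fell, *Dab2*, *Fcgrt* and *Folr1*. A change was called when it reached 1.5-fold on the log2(FPKM + 1) scale with an unadjusted p under 0.05 in limma. Of all 14862 tested genes, 26.7% were called in ADPKD against WT, 14.2% higher and 12.5% lower. The share was 70.9% in ADPKD+MMPP against ADPKD, 27.9% higher and 43.0% lower, so that a called gene was the usual case in the treated libraries. Values of ADPKD and WT libraries were fully apart for 4 of the 8 genes (and for 67.0% of all tested genes), those of ADPKD+MMPP and ADPKD for 8 (87.8%) and those of ADPKD+MMPP and WT for 7 (91.9%). The median log2 fold change of the 8 genes was 0.53 in ADPKD against WT, beside 0.03 over all tested genes, and 1.89 in ADPKD+MMPP against ADPKD, beside -0.36. Relative to the median of all genes, the change with MMPP was 3.49 for *Lrp2*, 2.99 for *Cubn*, 2.76 for *Amn*, 1.74 for *Clcn5*, 6.46 for *Kap*, -2.67 for *Dab2*, -2.06 for *Fcgrt* and -0.61 for *Folr1*. The scaling of the libraries moved that median, to -0.55 with a common FPKM sum, -0.14 with trimmed-mean (TMM) factors and 0.10 with quantile normalization, and the share of called genes that were higher went from 39.3% to 31.9, 47.1 and 54.0%. Both comparisons use the same ADPKD libraries. In bulk RNA of this kind, fewer cells of a type and less RNA per cell cannot be told apart.

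**Figure D1:**
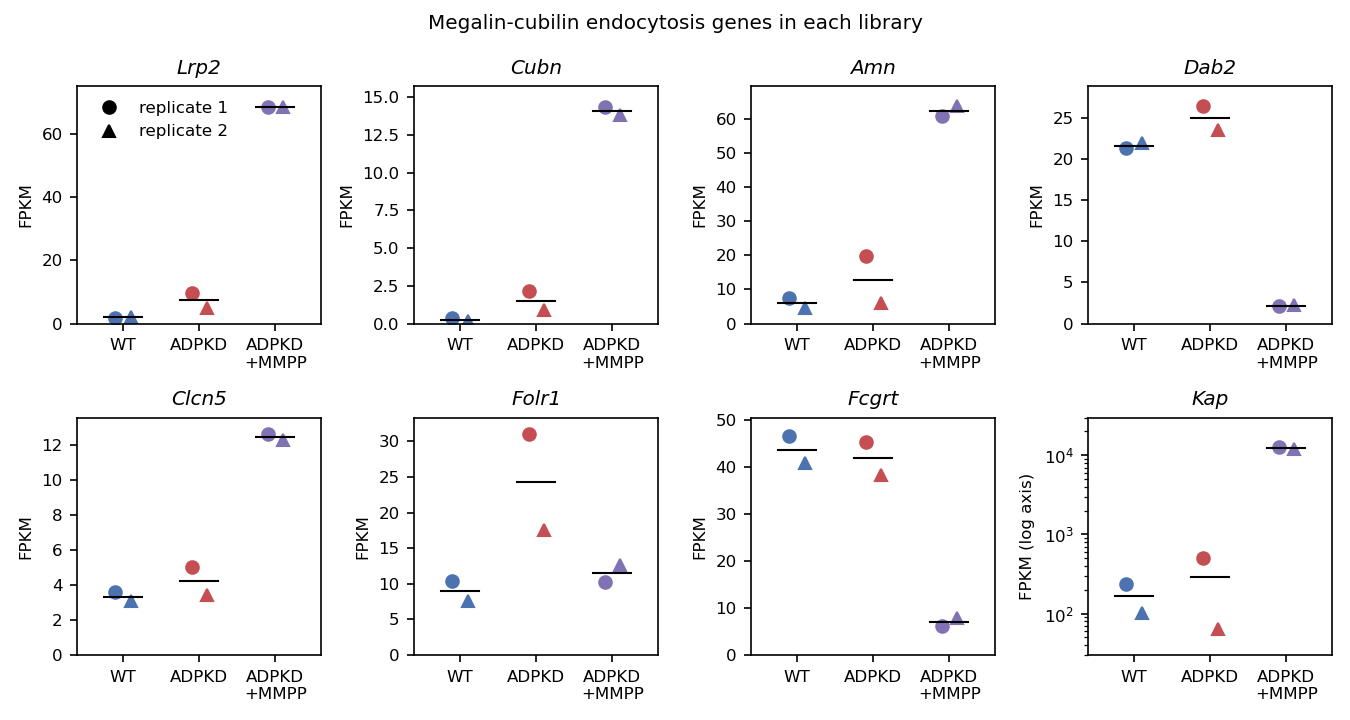
FPKM of the 8 genes in each library, with 1 panel per gene, groups on the x axis, circles for replicate 1, triangles for replicate 2 and lines for the mean of the group (n = 2). The axis starts at 0 in every panel but that of *Kap*, which is logarithmic. *Lrp2*, *Cubn*, *Amn*, *Clcn5* and *Kap* were highest in both ADPKD+MMPP libraries, and *Dab2* and *Fcgrt* were lowest there.

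*Lrp2* encodes megalin and lies at chr2:69424340-69586065 on the minus strand (GRCm38, GENCODE vM21). It was at 1.88 and 2.21 FPKM in WT, 9.80 and 4.86 in ADPKD and 68.7 in each of the ADPKD+MMPP libraries. The 3 groups did not overlap, and the ADPKD libraries stood 2.02-fold apart. *Lrp2* rose in ADPKD against WT by a log2 fold change of 1.39 (SE 0.287, 95% CI 0.676 to 2.101, limma adjusted p = 0.0206), from 2.04 ± 0.232 to 7.33 ± 3.49 FPKM (SD, n = 2). With MMPP it rose further, to 68.7 ± 0.0214 FPKM (SD, n = 2), 9.37-fold over ADPKD, with a log2 fold change of 3.13 (95% CI 2.42 to 3.84, limma adjusted p = 0.000224). Between 959 and 13546 reads lay behind each of these values.

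*Cubn*, the cubilin gene at chr2:13276338-13491813 (minus strand), was the lowest of the set in WT, at 0.368 and 0.164 FPKM. ADPKD libraries held 2.16 and 0.867 FPKM and ADPKD+MMPP libraries 14.3 and 13.8. *Cubn* thus passed the filter of 1 FPKM in 2 libraries only through ADPKD replicate 1 and the ADPKD+MMPP libraries. The groups again did not overlap, and the rise in ADPKD was uneven, 2.50-fold larger in level in one library than in the other. The log2 fold change was 0.95 in ADPKD against WT (SE 0.260, 95% CI 0.30 to 1.59, limma adjusted p = 0.0464), on a scale whose added 1 shrinks the change of so low a gene: with 0.1 added in its place it was 2.07. This call was lost without ADPKD replicate 1 (0.56) and without WT replicate 2 (0.83). In ADPKD+MMPP against ADPKD *Cubn* rose 9.28-fold in mean FPKM (log2 fold change 2.63, 95% CI 1.99 to 3.28, limma adjusted p = 0.000293), from 1.52 ± 0.917 to 14.1 ± 0.369 FPKM (SD, n = 2).

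*Amn* (chr12:111271095-111276426, plus strand), which encodes the membrane anchor of cubilin, was at 7.35 and 4.66 FPKM in WT, 19.7 and 5.92 in ADPKD and 60.8 and 63.7 in ADPKD+MMPP libraries. WT and ADPKD overlapped, because the second ADPKD library fell between the WT libraries. ADPKD against WT gave a log2 fold change of 0.80 (SE 0.510, 95% CI -0.46 to 2.07, limma adjusted p = 0.289), an interval that holds both no change and a rise as large as that of *Lrp2*. Without ADPKD replicate 2, *Amn* was called at 1.59. MMPP took *Amn* above every other library, with a log2 fold change of 2.40 over ADPKD (95% CI 1.14 to 3.67, limma adjusted p = 0.00633). It was 3.19 without ADPKD replicate 1 and 1.61 without ADPKD replicate 2.

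Ratios within a library set the receptors beside each other. *Lrp2* to *Cubn* was 5.11 and 13.4 in WT, where *Cubn* rested on 168 and 76 reads, 4.53 and 5.61 in ADPKD and 4.79 and 4.97 in ADPKD+MMPP libraries. All libraries but the second WT library thus lay between 4.53 and 5.61. *Cubn* to *Amn* was 0.0501 and 0.0353 in WT, 0.110 and 0.146 in ADPKD and 0.236 and 0.217 in ADPKD+MMPP libraries, with no overlap between groups. *Cubn* was thus higher relative to its anchor in each group in turn, as a description of these libraries with no test. For ADPKD+MMPP against ADPKD this order turned when each gene was set against genes of like annotation where the log2 change was 1.52 for *Cubn* and 3.51 for *Amn*.

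Of the tested genes with a mean of at least 5 FPKM in at least 1 group, 9438 without *Lrp2*, those with a profile most like that of *Lrp2* included *Cgref1*, *Slc10a2*, *Guca2b* and *Dnajc22*. Their Euclidean distances to *Lrp2* over the 6 libraries, on mean-centred log2(FPKM + 1), were 0.285, 0.527, 0.581 and 0.639. *Cgref1*, the nearest, was at 1.67 and 1.96 FPKM in WT, 9.38 and 5.54 in ADPKD and 73.9 and 75.4 in ADPKD+MMPP libraries. *Slc10a2* encodes the apical sodium-bile acid cotransporter. Within the set, *Cubn* ranked at 19 and *Amn* at 99, with distances of 0.986 and 1.5, while *Clcn5* ranked at 1189, *Kap* at 2210 and *Folr1* at 4415. *Fcgrt* and *Dab2* were among the genes least like *Lrp2*, at ranks 7953 and 8483. Markers of the proximal tubule that met this limit were spread widely. *Gpx3* ranked at 11, *Slc27a2* at 33, *Fbp1* at 54 and *Slc13a1* at 108. The others ranked from 1158 to 4039, the last being *Slc34a1*, the sodium-phosphate cotransporter of the proximal brush border.

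*Dab2*, the clathrin adaptor of megalin (chr15:6299788-6440712, plus strand), moved against its receptor. It was at 21.3 and 21.9 FPKM in WT, 26.4 and 23.5 in ADPKD and 2.12 and 2.25 in ADPKD+MMPP libraries, the last on 184 and 180 reads. ADPKD libraries lay above both WT libraries, but the log2 fold change of 0.20 (SE 0.120, 95% CI -0.10 to 0.50, limma adjusted p = 0.265) was not called. With MMPP *Dab2* fell 11.4-fold below ADPKD, with a log2 fold change of -3.03 (95% CI -3.32 to -2.73, limma adjusted p = 2.34e-05), from 24.97 ± 2.04 to 2.19 ± 0.0880 FPKM (SD, n = 2). For each FPKM of *Lrp2* there were 11.3 and 9.93 FPKM of *Dab2* in WT, 2.70 and 4.84 in ADPKD, and 0.0309 and 0.0327 in ADPKD+MMPP libraries. The adaptor was therefore the more abundant transcript per length in all WT and ADPKD libraries and the scarcer one in both treated libraries.

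*Clcn5* (chrX:7153810-7319358, minus strand), the exchanger of early endosomes, was at 3.59 and 3.06 FPKM in WT, 5.04 and 3.41 in ADPKD and 12.6 and 12.3 in ADPKD+MMPP libraries. WT and ADPKD overlapped (log2 fold change 0.26, SE 0.180, 95% CI -0.19 to 0.70, limma adjusted p = 0.332). With MMPP it rose 2.95-fold over ADPKD (log2 fold change 1.38, 95% CI 0.93 to 1.83, limma adjusted p = 0.000872), which was less than the rise of *Lrp2*: the ratio of *Clcn5* to *Lrp2* was 1.91 and 1.39 in WT, 0.514 and 0.702 in ADPKD and 0.184 and 0.179 in ADPKD+MMPP libraries.

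**Figure D2:**
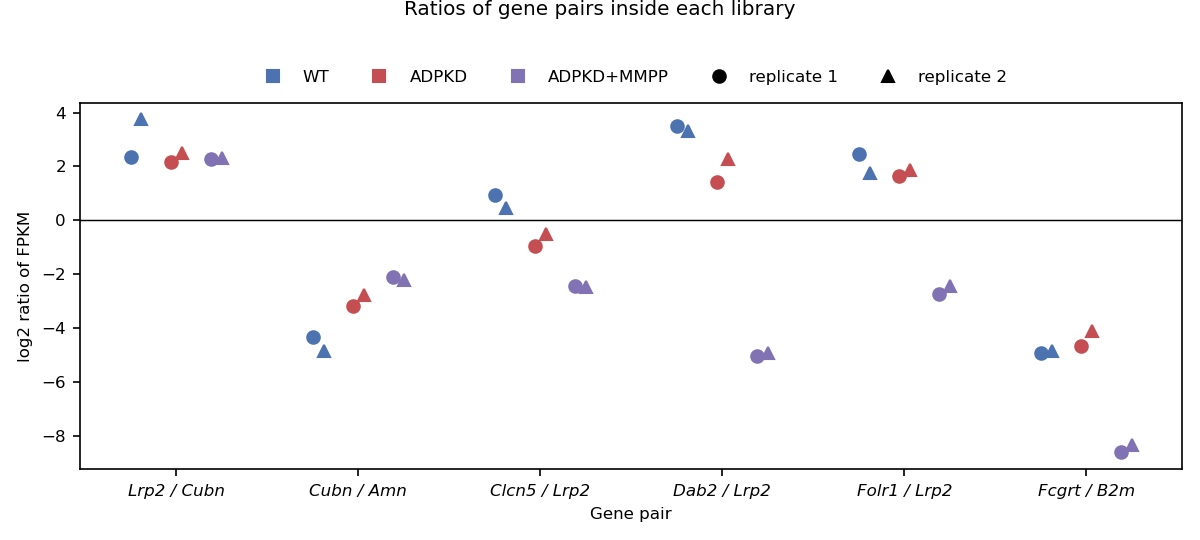
Log2 ratio of FPKM for 6 gene pairs on the x axis, with colours for the groups, circles for replicate 1 and triangles for replicate 2. The log2 ratio of *Lrp2* to *Cubn* lay between 2.18 and 2.49 in the ADPKD and ADPKD+MMPP libraries, while that of *Dab2* to *Lrp2* went from 3.50 and 3.31 in WT to -5.02 and -4.93 with MMPP.

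*Folr1* and *Fcgrt* take up ligands of their own. *Folr1*, a lipid-anchored folate receptor that recovers filtered folate (chr7:101858331-101870788, minus strand), was at 10.4 and 7.55 FPKM in WT, 31.0 and 17.6 in ADPKD and 10.3 and 12.7 in ADPKD+MMPP libraries. Both ADPKD libraries lay above all others, an order it shared within the set with *Dab2*, and it was the one of the pair whose rise over WT was called. *Folr1* rose in ADPKD against WT (log2 fold change 1.31, SE 0.296, 95% CI 0.57 to 2.04, limma adjusted p = 0.0265) and fell with MMPP (-0.97, 95% CI -1.70 to -0.24, limma adjusted p = 0.0254), and ADPKD+MMPP and WT libraries overlapped (0.34, 95% CI -0.40 to 1.07, limma adjusted p = 0.329). Relative to *Lrp2* it was at 5.52 and 3.42 in WT, 3.16 and 3.62 in ADPKD and 0.150 and 0.185 in ADPKD+MMPP libraries, so that the ratio was lower in both treated libraries than in the other 4. The fall of *Folr1* was not called after scaling with TMM factors (-0.65), without ADPKD replicate 1 (-0.58), without ADPKD+MMPP replicate 1 (-0.83) or at a threshold of 2-fold. Set against genes of like annotation it turned to 0.22, and the change against WT became 1.54 and was called.

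*Fcgrt* encodes the heavy chain of the neonatal Fc receptor (FcRn; chr7:45092990-45103851, minus strand), which binds albumin and IgG in acidic endosomes and returns them to the cell surface, and which pairs with beta-2-microglobulin (*B2m*). It was at 46.5 and 40.8 FPKM in WT, 45.4 and 38.3 in ADPKD and 6.21 and 7.85 in ADPKD+MMPP libraries, the last on 154 and 180 reads. WT and ADPKD overlapped, with a log2 fold change of -0.06 (SE 0.166, 95% CI -0.47 to 0.35, limma adjusted p = 0.809) whose sign turned without WT replicate 1 or ADPKD replicate 2. With MMPP *Fcgrt* fell 5.96-fold below ADPKD (log2 fold change -2.42, 95% CI -2.83 to -2.01, limma adjusted p = 8.38e-05). *B2m* went the other way, from 1157 and 664.8 FPKM in ADPKD to 2414 and 2508 with MMPP (log2 fold change 1.49, limma adjusted p = 0.00338). *Fcgrt* to *B2m* was 0.0335 and 0.0348 in WT, 0.0392 and 0.0576 in ADPKD and 0.00257 and 0.00313 in ADPKD+MMPP libraries, so that the heavy chain was scarcest relative to its partner in the treated libraries. The 2 genes differ in annotation, with 100% of exon bases in exactly 1 annotated transcript for *B2m* and 21.98% for *Fcgrt*. Tested protein-coding genes over 80% had a median log2 fold change with MMPP of 1.05 over ADPKD, and those between 20 and 40% one of -1.20. The part of annotation in this ratio was not tested.

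*Kap*, the kidney androgen-regulated protein (chr6:133849851-133853762, minus strand), is an abundant, androgen-dependent transcript of mouse proximal tubule cells. It was at 234 and 101 FPKM in WT, 509 and 64.0 in ADPKD and 12822 and 12116 in ADPKD+MMPP libraries. *Kap* was the most abundant gene by FPKM in both treated libraries, with 3.66 and 3.45% of all FPKM, against 0.0227 to 0.179% in the others. The ADPKD libraries were 7.95-fold apart and enclosed both WT libraries, and the interval of the difference was too wide to place it on either side (log2 fold change 0.23, SE 0.958, 95% CI -2.14 to 2.61, limma adjusted p = 0.878): it was -1.25 without ADPKD replicate 1, -0.37 without WT replicate 2 and 1.72, past the threshold, without ADPKD replicate 2. With MMPP *Kap* rose 43.5-fold in mean FPKM over ADPKD (log2 fold change 6.10, 95% CI 3.72 to 8.47, limma adjusted p = 0.00184). The log2 fold change was 7.58 without ADPKD replicate 1, 4.61 without ADPKD replicate 2 and 4.71 with quantile normalization.

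**Figure D3:**
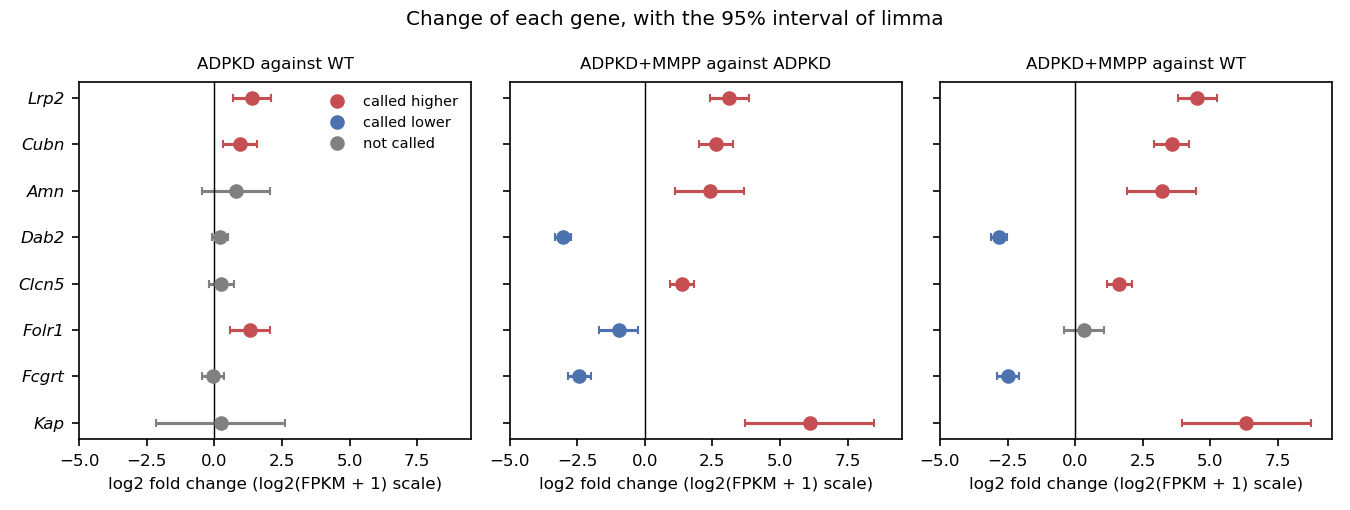
Log2 fold change of the 8 genes on the log2(FPKM + 1) scale in 3 panels (ADPKD against WT, ADPKD+MMPP against ADPKD, ADPKD+MMPP against WT), with bars for the 95% confidence interval of the limma fit and red, blue and grey for genes called higher, called lower and not called. In ADPKD against WT the intervals of *Lrp2*, *Cubn* and *Folr1* lay above 0, in ADPKD+MMPP against ADPKD those of 5 genes lay above 0 and those of *Dab2*, *Fcgrt* and *Folr1* below it, and against WT the interval of *Folr1* held 0.

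Set against WT in place of ADPKD, the treated libraries had 5 of the 8 genes higher and 2 lower, where 73.9% of all tested genes were called, 30.1% higher and 43.8% lower. *Lrp2* was 33.6-fold higher than in WT (log2 fold change 4.52, limma adjusted p = 5.68e-05), *Cubn* 52.9-fold (3.58, adjusted p = 8.60e-05 in limma) and *Amn* 10.4-fold in mean FPKM. *Dab2* was 9.89-fold and *Fcgrt* 6.21-fold lower than in WT, with log2 fold changes of -2.83 and -2.48. In these libraries 7 of the 8 genes differed between MMPP-treated and WT cells, and *Folr1* was the one whose treated libraries overlapped those of WT.

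The ADPKD libraries differed from each other in the same order throughout the set: replicate 1 was above replicate 2 in 8 of the 8 genes, with a ratio of 7.95 for *Kap*, 3.33 for *Amn*, 2.50 for *Cubn*, 2.02 for *Lrp2* and 1.12 for *Dab2*. In 13 of 14 proximal tubule markers replicate 1 was likewise above replicate 2, as it was in 52.9% of all tested genes. In WT replicate 1 was above replicate 2 in 6 of the 8 genes, 13 of the 14 markers and 49.8% of all tested genes. *Slc34a1*, for example, was at 44.9 and 4.44 FPKM in these libraries, and at 67.5 and 22.9 in WT. Levels of proximal tubule markers thus differed between libraries of 1 group, and their part in the values of the set was not tested.

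In ADPKD+MMPP against ADPKD 27.9% of all tested genes were called higher and 43.0% lower. Of 14 proximal tubule markers 11 rose and none fell there at an unadjusted p under 0.05 in limma. Their median log2 fold change was 2.58, beside -0.36 over all tested genes. *Slc7a13*, a cystine and aspartate transporter of the straight segment, had the largest log2 fold change, 6.58, and the gluconeogenic enzyme *Pck1* the smallest of the called, 1.46, while *Slc34a1*, at 57.2 and 57.8 FPKM with MMPP, was not called (1.89, limma adjusted p = 0.140). In ADPKD against WT 3 markers rose, *Slc13a1* most (1.98), the inositol oxygenase *Miox* fell (-2.59), and the median was -0.23. *Slc13a1* was at 18.1 and 2.48 FPKM in the ADPKD libraries (limma adjusted p = 0.103) and *Miox* at 7.71 and 0.491 (limma adjusted p = 0.0715). Neither was under 0.05 after adjustment, while the other markers that rose, *Slc5a12* and *Gpx3*, were (limma adjusted p = 0.00880 and 0.00199). In that comparison 14.2% of all tested genes were called higher and 12.5% lower. Summed over the 14 markers, FPKM was 477 to 586 in WT, 1358 to 1482 in ADPKD and 9593 to 10066 in ADPKD+MMPP libraries, and no marker was at 0 in both libraries of any group. Most of that sum was *Gpx3*, a secreted glutathione peroxidase, at 378 and 396 FPKM in WT, 1274 and 1300 in ADPKD and 8789 and 8321 with MMPP. The other 13 markers summed to 207 and 81.5 FPKM in WT, 208 and 57.3 in ADPKD and 1277 and 1272 with MMPP, so that they overlapped between WT and ADPKD and were higher in both treated libraries.

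Relative to these 13 markers, *Lrp2* was at 0.00906 and 0.0271 in WT, 0.0470 and 0.0848 in ADPKD and 0.0538 and 0.0540 in ADPKD+MMPP libraries. *Cubn* was at 0.00177 and 0.00202 in WT, 0.0104 and 0.0151 in ADPKD and 0.0112 and 0.0109 with MMPP. For both receptors the treated libraries lay between the ADPKD libraries, and both WT libraries lay below. Over the sum with *Gpx3* the order was another for *Lrp2* but not for *Cubn*. *Lrp2* was at 0.00321 and 0.00462 in WT, 0.00661 and 0.00358 in ADPKD and 0.00683 and 0.00716 with MMPP. *Cubn* was at 0.000628 and 0.000344 in WT, 0.00146 and 0.000638 in ADPKD and 0.00142 and 0.00144 with MMPP. *Kap* stood higher relative to the 13 markers with MMPP, 10.04 and 9.53, than in the other 4 libraries, 1.128 and 1.24 in WT and 2.44 and 1.12 in ADPKD. The part of proximal tubule content in the values of the set was not tested.

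*Dab2* and *Fcgrt* are also known from macrophages and endothelium. The 4 endothelial markers summed to 515 to 638 FPKM in WT, 228 to 249 in ADPKD and 101 to 103 in ADPKD+MMPP libraries, with 4 of 4 lower in ADPKD against WT and 2 lower with MMPP. The 6 macrophage markers summed to 80.5 to 98.0, 414 to 558 and 784 to 837 FPKM, with 6 of 6 higher in ADPKD. With MMPP 3 of them rose further, while *Cd68* (-0.94) and *Adgre1* (-1.29) fell. *Havcr1*, the kidney injury molecule of damaged proximal tubule, was at 0 and 0.0559 FPKM in WT, 136 and 26.6 in ADPKD and 14.2 and 13.7 with MMPP, and like *Folr1* was highest in both ADPKD libraries. Markers of the enriched principal cells summed to 2079 to 2776 FPKM in WT, 942 to 2482 in ADPKD and 5417 to 5441 with MMPP, most of it *Aqp2* and *Hsd11b2*, and with MMPP 4 of 7 tested rose while *Scnn1b* (-1.76) and *Aqp4* (-1.99) fell. Intercalated cell markers were lower in ADPKD against WT in 7 of 7 and higher with MMPP in 6 of 7, with sums of 274 to 290.5, 29.2 to 63.4 and 184 to 194 FPKM. Podocyte markers summed to 782 to 1067, 66.7 to 174 and 86.0 to 88.8 FPKM, and those of thick limb and distal tubule to 486 to 1259, 184 to 599.9 and 185 to 187. Over all tested genes 14.2% were called higher and 12.5% lower in ADPKD against WT, and 27.9% and 43.0% in ADPKD+MMPP against ADPKD. Marker levels of several cell types thus differed between groups, and their part in the values of the set was not tested.

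In ADPKD+MMPP libraries direction also went with how a gene is annotated. Exon bases that belong to exactly 1 annotated transcript made up 74.9% of those of *Lrp2*, 85.7% of *Cubn*, 72.1% of *Clcn5*, 43.0% of *Amn* and 34.4% of *Kap*, which rose, and 21.98% of *Fcgrt*, 31.5% of *Dab2* and 37.9% of *Folr1*, which fell. Over all tested protein-coding genes, the median log2 fold change in ADPKD+MMPP against ADPKD was -1.61 where that share was under 20%, -1.20 between 20 and 40%, and 1.05 where it was over 80%. Of the genes in the lowest of these classes 3.20% were called higher and 81.1% lower, and of those in the highest 70.2% were higher and 5.28% lower. *Dab2* and *Fcgrt* lay below the median of genes of like structure, and *Folr1* did not. With each gene set against genes of a like share, the change from ADPKD to ADPKD+MMPP on the log2 scale was 2.71 for *Lrp2*, 1.52 for *Cubn*, 3.51 for *Amn*, 0.96 for *Clcn5*, 7.48 for *Kap*, -1.64 for *Dab2* and -0.77 for *Fcgrt*, all past the threshold, and 0.22 for *Folr1* (limma adjusted p = 0.519). Against WT in the same way *Folr1* was higher with MMPP, by 1.54 (limma adjusted p = 0.00297). Because every treated library had this feature, it cannot be told apart from treatment.

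**Figure D4:**
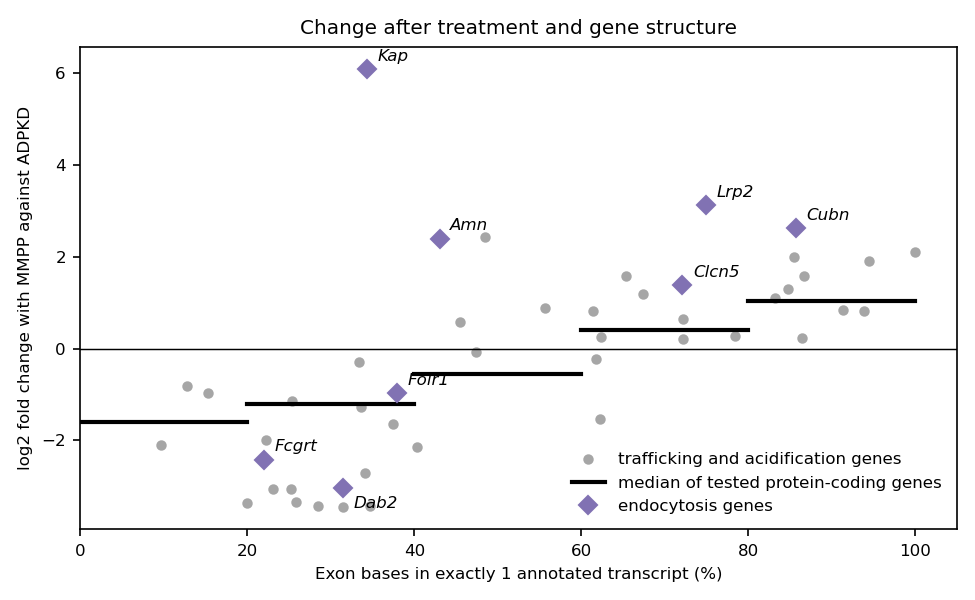
Log2 fold change in ADPKD+MMPP against ADPKD on the y axis against the share of exon bases in exactly 1 annotated transcript on the x axis, with the 8 genes as named diamonds, the trafficking and acidification genes as grey points and black lines for the median of tested protein-coding genes in each of 5 classes of the share. The medians went from -1.61 in the lowest class to 1.05 in the highest, and *Amn* and *Kap* lay far above the medians of their classes.

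The machinery that moves the receptors was read through 26 trafficking genes, all of which were tested. In ADPKD against WT 3 rose and 1 fell (15.4% called, beside 26.7% of all tested genes). *Ehd1*, a recycling ATPase, had the largest rise, from 36.9 and 33.9 to 66.2 and 86.7 FPKM (log2 fold change 1.08), and the inositol phosphatase *Inpp5b* was the one that fell (-1.43). In ADPKD+MMPP against ADPKD 10 rose and 11 fell (80.8% called, beside 70.9% of all tested genes), with a median of 0.08. The chaperone of megalin *Lrpap1* rose by 1.19, the tail-binding *Gipc1* by 1.58 and the early endosome GTPase *Rab5b* by 1.99, the largest rise of the list. *Snx17*, a sorting nexin that recycles receptors of the megalin family, fell most (-3.43), and the clathrin chains *Clta* and *Cltc* fell almost as far (-3.42 and -3.35). The other clathrin light chain, *Cltb*, was not called (0.28), and subunits of the coat adaptor AP-2 went both ways, with *Ap2a2* (1.58), *Ap2b1* (0.83) and *Ap2s1* (0.59) higher and *Ap2a1* (-3.37) and *Ap2m1* (-2.15) lower. These 6 genes were named after their values were seen. The genes that rose had 45.5 to 94.5% of their exon bases in 1 transcript and those that fell 9.66 to 40.3%, 2 ranges that did not overlap.

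Of 13 genes of endosome acidification and ion transport none was called in ADPKD against WT by limma, 3 of them at an unadjusted p under 0.05 with a fold change below 1.5. With MMPP 5 rose over ADPKD and 6 fell (84.6% called, beside 70.9%). The sodium/proton exchanger *Slc9a3* of the brush border had the largest rise (2.43), and *Atp6v0a4*, a proton pump subunit, the largest fall (-3.45). The relatives of *Clcn5* did not move as one: *Clcn4* rose by 0.88, and *Clcn3* and *Clcn7* fell (-1.54 and -3.05). Here the genes that rose had 48.4 to 100% of exon bases in 1 transcript and those that fell 22.2 to 62.2%.

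The other receptors of the megalin family, 10 of 11 listed genes tested, held 5 that rose and 1 that fell in ADPKD against WT. Among the 5 was *Lrp8*, which passed the filter only through the ADPKD libraries, at 1.47 and 3.94 FPKM (limma adjusted p = 0.0706). In that comparison 60% of the list was called, beside 26.7% of all tested genes. *Sorl1*, a sorting receptor, rose there by 1.47 and with MMPP by a further 1.57, the largest change of the list in both, and so ran in the order of *Lrp2*: 10.2 and 7.93 FPKM in WT, 29.8 and 23.9 in ADPKD, 79.6 and 82.6 with MMPP. *Lrp5*, a Wnt coreceptor, went down in both comparisons, by -1.20 and -2.97. *Lrp1*, the large hepatic relative of megalin, was called in neither (-0.56 and -0.54). Over the list, 3 genes rose and 4 fell with MMPP against ADPKD, or 70% beside 70.9% of all tested genes. Those that rose had 76.4 to 91.1% of exon bases in 1 transcript and those that fell 10.8 to 54.2%.

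Vitamin carriers and the enzymes that use their cargo were called in 10 of 10 tested genes of 12 listed in ADPKD+MMPP against ADPKD, 5 higher and 5 lower, where 70.9% of all tested genes were called. *Ttr*, the thyroxine and retinol carrier transthyretin that megalin binds, rose most, from 0.535 and 0.894 FPKM in ADPKD to 47.4 and 54.1 (log2 fold change 4.92), and *Tcn2*, the vitamin B12 carrier, fell most (-1.91). *Cyp24a1*, which breaks down active vitamin D, rose by 3.25 and the receptor *Vdr* by 2.26, while *Cyp27b1*, which makes active vitamin D, fell by 1.22 on the log2 scale. Direction in this list went with annotation too. The genes that rose with MMPP had 65.2 to 100% of exon bases in 1 transcript and those that fell 6.75 to 59.2%, ranges that did not overlap. In ADPKD against WT *Cyp27b1* had been the highest of 4 genes that rose, by 1.72, and *Ttr* the lowest of 3 that fell (-0.95). There 70% of the tested genes of the list were called, beside 26.7% of all tested genes. *Cyp27b1*, at 3.54 and 2.53 FPKM in ADPKD, passed the filter only through the ADPKD libraries, as did *Stra6* of the same list. Both thus entered the counts of called genes through the group in which they were high. Of the albumin and IgG partners, *B2m* and *Alb* rose with MMPP and *Sparc* fell by 4.84 on the log2 scale, from 340.2 and 343.9 FPKM to 11.9 and 10.0. *Alb* was near the floor, at 0.181 and 0.0266 FPKM in ADPKD and 1.30 and 1.80 with MMPP. It passed the filter only through the treated libraries. None of the 3 was called in ADPKD against WT, with 0 of 3 at an unadjusted p under 0.05 in limma.

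Of 6 transcription factors of the proximal tubule, 5 were tested. *Hnf4a* rose in ADPKD against WT by 1.12 and fell with MMPP by 2.84 on the log2 scale, to 0.0351 and 0 FPKM, against 7.28 and 5.37 in ADPKD. *Maf* rose with MMPP (2.15). *Hnf4a* has 9.78% of its exon bases in 1 transcript. Neither of these factors ran in the order of *Lrp2*, *Cubn* and *Amn*.

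The stretches just upstream of the annotated starts of the receptor genes that rose together, *Lrp2*, *Cubn* and *Amn*, and of the pair that fell most, *Dab2* and *Fcgrt*, are given for comparison, since the study concerned the transcription factor CREB. Sequences are those of RefSeq (GRCm38.p6), 5′ to 3′ on the strand of the gene, chr2:69586066-69586185 (minus) for *Lrp2*, chr2:13491877-13491996 (minus) for *Cubn*, chr12:111270975-111271094 (plus) for *Amn*, chr15:6299668-6299787 (plus) for *Dab2* and chr7:45103852-45103971 (minus) for *Fcgrt*. Capitals mark the sole match to the CREB half-site TGACG in these windows.
Lrp2: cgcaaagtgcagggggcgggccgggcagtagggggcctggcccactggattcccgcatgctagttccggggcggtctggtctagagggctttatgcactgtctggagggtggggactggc
Cubn: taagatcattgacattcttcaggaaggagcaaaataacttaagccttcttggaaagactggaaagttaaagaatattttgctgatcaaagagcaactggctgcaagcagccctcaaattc
Amn: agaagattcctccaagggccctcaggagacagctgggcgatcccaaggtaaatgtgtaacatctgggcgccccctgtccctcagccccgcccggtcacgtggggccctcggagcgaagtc
Dab2: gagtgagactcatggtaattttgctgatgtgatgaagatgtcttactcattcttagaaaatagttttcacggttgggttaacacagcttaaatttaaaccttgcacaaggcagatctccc
Fcgrt: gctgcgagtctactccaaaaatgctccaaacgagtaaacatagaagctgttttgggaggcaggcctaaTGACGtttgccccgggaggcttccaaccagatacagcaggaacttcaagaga

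The 250 bases upstream of the RefSeq starts were searched on both strands in 9 windows of 7 of the genes. The full CREB site TGACGTCA was in none of the 9, and is in 1.55% of 32851 mouse windows. Its half-site TGACG, which every full site also holds, was in the window of *Fcgrt*, 81 bases before the start, and is in 17.8% of all windows. The HNF4 motif CAAAGTCCA was in none, and is in 0.384% of all windows. A TATAAA box was found 31 bases before the start of *Kap* and 172 bases before 1 of the starts of *Clcn5*, and is in 12.4% of all windows. The windows of the receptor genes differed in composition: 66.4% of bases were G or C for *Lrp2* with 18 CpG, 61.2% for *Amn* with 11, and 39.6% for *Cubn* with 2, against medians of 52.4% and 6 over all windows.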

How the data were processed

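RNA of DBA-enriched kidney cells was sequenced in 6 libraries (WT, ADPKD, ADPKD+MMPP, 2 each). According to the submitters' processing notes and the study's methods, the authors aligned reads to GRCm38 with HISAT2 2.1.0, counted them with featureCounts 1.6.0 and deposited FPKM for each gene and library. The FPKM step and annotation are not given in the sources used here, and the authors ran DESeq2 on counts, which was not done here because the deposited values are FPKM.

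Symbols were matched to GENCODE vM21 (53186 of 55367), and FPKM times exon length gave read numbers and depth (98.2 to 98.9% of low values whole within 0.02). Per-gene intervals from counts were not computed. The 14862 genes that reached 1 FPKM in 2 or more libraries entered a limma 3.58.1 fit (R 4.3.3) of log2(FPKM + 1), two-sided and over the 6 libraries together, with Benjamini-Hochberg adjustment over all tested genes. Calls used a fold change of 1.5 on that scale and an unadjusted p under 0.05. The study gives the same numbers, 1.5 and 0.05, for its DESeq2 results on counts, and does not say whether its P was adjusted. Fold changes in FPKM are ratios of group means. The steps were tested on simulated data. An exact permutation test of 2 against 2 libraries cannot go below p = 0.333 and was not used. Libraries of a group differed by more than sampling noise, most in ADPKD and least in ADPKD+MMPP. The mean chi-square per gene between the libraries of a group was 51.2 in ADPKD, 13.5 in WT and 2.20 in ADPKD+MMPP. The labels do not say whether the libraries came from separate animals, so p-values measure only the spread between these samples, which may be technical.

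The genes named are the 8 genes, *B2m* and *Slc34a1* as partners, *Pkd1*, of each list the called genes with the highest and lowest fold change and at most 4 more with a described role, and the 5 genes nearest to *Lrp2*. Some genes that this rule names are not reported here. The genes, lists and rules were chosen with earlier results of these data known. The TATA search, the ratio of *Folr1* to *Lrp2* and the marker sum without *Gpx3* were added after values were seen. Alternatives were a pseudocount of 0.1, other filters and scalings, a replicate block, a fold change of 2, each library left out, and centring on genes of like annotation.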

Additional observations from a re-analysis of the deposited data

How the results depend on the processing

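Leaving out each library in turn gave 2 to 5 of the 8 genes higher in ADPKD against WT (5 without ADPKD replicate 2) and a median log2 fold change of the 8 of 0.0745 to 1.46. In ADPKD+MMPP against ADPKD that median was 1.38 to 2.31 without 1 library, 1.61 with a common sum, 2.20 with TMM factors and 1.24 when centred on genes of like annotation, and against WT it was 2.07, 2.70 and 1.99 under the same 3 settings. Directions turned for *Fcgrt* (-0.18 to 0.06 without 1 library, 0.0313 without WT replicate 1 and 0.058 without ADPKD replicate 2) and *Kap* (-1.25 to 1.72, -0.37 without WT replicate 2) in ADPKD against WT. They also turned for *Folr1*, which was 0.22 in ADPKD+MMPP against ADPKD when centred and -0.023 against WT with a common sum. A fold change of 2 ended the calls of *Cubn* in ADPKD against WT and of *Folr1* in ADPKD+MMPP against ADPKD. The causes were not tested.

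With centring, 57.9% of called genes were higher in ADPKD+MMPP against ADPKD and 57.2% against WT, where the main share was 40.8%, with 32.0, 47.0 and 52.9% under the common sum, TMM and quantile scalings. With the replicate number as a block the counts were 3 and 0, 5 and 3, and 5 and 2 higher and lower, and no call of the 8 genes changed. Nothing in the labels pairs same-numbered libraries, and over all tested genes their deviations correlated at 0.129 for WT and ADPKD, -0.00796 for WT and ADPKD+MMPP and 0.0137 for ADPKD and ADPKD+MMPP, although 13 of 14 proximal tubule markers were higher in replicate 1 in each of WT and ADPKD. With 2 libraries a group, the spread between the ADPKD libraries left the ADPKD against WT changes of *Amn* and *Kap* unplaced.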
